A study of Mus musculus with 8 samples.

Results

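The genes described here were grouped for their roles at the later stages of the B cell response, in the germinal centre reaction and in the antibody-secreting plasma cell. Whether any of them is already expressed in the resting B cell was not tested. They were a named set of 7 members, Bcl6, Irf4, Prdm1, Xbp1, Sdc1, Mzb1 and Jchain, out of 21564 protein-coding genes whose regions were measured. CpG methylation was read by whole-genome bisulfite sequencing in lymphocytes from the spleen of C57BL/6J mice aged 6 to 8 weeks. The groups were resting B cells (CD43-) and naive helper T cells (CD4+ and CD62L+, sorted for low CD44 and no CD25), each from females and from males, with cells pooled over several animals and no treatment named in the labels. The series holds 8 samples in 4 groups of 2, and 1 processed file for each group was analysed, so a B against T difference was seen once in females and once in males, and no group has a replicate of its own. The question was whether genes of later B cell stages are already unmethylated in the resting B cell, before it meets antigen, when the T cell is the comparison.

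A resting B cell that meets antigen can enter a germinal centre, where it divides, mutates its antibody genes and is selected, or it can turn into a plasma cell. BCL6 is the repressor that holds the germinal centre programme. IRF4 is needed for both fates and at high level drives the exit towards the plasma cell, where BLIMP-1, the product of Prdm1, shuts down the B cell programme, and XBP1 enlarges the secretory apparatus. SDC1 (CD138) marks the plasma cell surface, MZB1 is an endoplasmic reticulum chaperone of antibody assembly, and the J chain links the subunits of secreted IgM and IgA. Several of these factors also work in T cells: BCL6 in follicular helper cells, and BLIMP-1 and IRF4 in effector T cells. DNA methylation at a CpG, a cytosine followed by guanine, is usually low at active or poised starts and enhancers and high elsewhere.

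Methylation levels below are percentages of reads that called a CpG methylated, summed over all CpGs of an interval that had at least 5 reads in all 4 files. Bisulfite reads 5-methylcytosine and 5-hydroxymethylcytosine alike, so a level counts both. A point is 1 percentage point, and a difference is the B level minus the T level, averaged over females and males. Values in brackets are 95% Wilson intervals, which cover counting error only. The 4 files held a mean of 14.6 to 17.7 reads per autosomal CpG, and 18216084 autosomal CpGs were read in all of them. Within the regions of the members, gene bodies with 10 kb on each side, 4127 CpGs were measured.

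Stretches from Irf4, Xbp1 and Prdm1, the members with called windows in both directions, are given first, so that the density of CpGs can be seen. CpGs are in capitals and all other bases in lower case, read 5′ to 3′ on the plus strand of GRCm38. Each is the stretch of neighbouring CpGs with the largest number of CpGs that differed in that direction at its gene, or its 300 bases with the most measured CpGs. At Xbp1, 2 higher stretches tied at 9 CpGs and the longer was taken. The shorter (chr11:5517995-5518359) was at 94.1% and 84.3% in female and male B cells compared with 35.1% and 40.1% in T cells. Not shown are the lower stretch of Prdm1, with 6 CpGs, and Mzb1, which had the longest lower run of all members (23 CpGs over 2217 bp). The first lies in an intron of Irf4 (chr13:30751243-30751524) and had the lowest levels in B cells, with 0% (0 to 3) in females and 3.85% (1.51 to 9.47) in males compared with 83.0% (76.6 to 88.0) and 82.7% (76.2 to 87.8) in T cells.
Irf4, lower in B cells: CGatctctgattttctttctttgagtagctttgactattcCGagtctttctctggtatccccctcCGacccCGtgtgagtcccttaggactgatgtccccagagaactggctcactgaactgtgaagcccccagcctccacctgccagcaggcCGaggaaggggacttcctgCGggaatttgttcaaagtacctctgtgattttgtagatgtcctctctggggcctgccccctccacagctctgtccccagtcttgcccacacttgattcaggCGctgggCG
The second lies just upstream of the same gene (chr13:30748528-30748761) and differed the opposite way, with 76.4% and 52.7% in female and male B cells compared with 13.1% and 18.8% in T cells.
Irf4, higher in B cells: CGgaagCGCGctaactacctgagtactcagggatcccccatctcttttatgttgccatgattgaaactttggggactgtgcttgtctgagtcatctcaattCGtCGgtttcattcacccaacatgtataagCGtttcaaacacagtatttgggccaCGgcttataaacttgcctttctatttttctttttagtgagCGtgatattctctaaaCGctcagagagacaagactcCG
The third and the fourth are both upstream of Xbp1. At chr11:5512202-5512501 the levels were 2.00% and 5.00% in female and male B cells compared with 71.8% and 63.9% in T cells.
Xbp1, lower in B cells: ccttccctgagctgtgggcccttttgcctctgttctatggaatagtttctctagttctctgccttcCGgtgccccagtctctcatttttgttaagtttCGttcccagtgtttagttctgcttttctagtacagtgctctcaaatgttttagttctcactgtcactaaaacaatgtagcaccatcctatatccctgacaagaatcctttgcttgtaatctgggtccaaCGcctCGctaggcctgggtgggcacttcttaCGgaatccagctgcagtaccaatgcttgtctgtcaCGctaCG
At chr11:5517306-5517605, nearer to the start site of Xbp1, the levels were 92.5% and 88.9% in female and male B cells compared with 9.86% and 5.76% in T cells.
Xbp1, higher in B cells: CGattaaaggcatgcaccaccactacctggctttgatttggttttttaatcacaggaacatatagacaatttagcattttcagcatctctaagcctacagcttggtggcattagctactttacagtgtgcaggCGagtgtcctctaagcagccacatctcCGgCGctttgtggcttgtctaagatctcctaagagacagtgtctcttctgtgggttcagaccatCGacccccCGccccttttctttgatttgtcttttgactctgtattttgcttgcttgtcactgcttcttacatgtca
The fifth lies in an intron of Prdm1 (chr10:44443594-44443893), with 90.1% and 89.1% in female and male B cells compared with 21.1% and 9.33% in T cells.
Prdm1, higher in B cells: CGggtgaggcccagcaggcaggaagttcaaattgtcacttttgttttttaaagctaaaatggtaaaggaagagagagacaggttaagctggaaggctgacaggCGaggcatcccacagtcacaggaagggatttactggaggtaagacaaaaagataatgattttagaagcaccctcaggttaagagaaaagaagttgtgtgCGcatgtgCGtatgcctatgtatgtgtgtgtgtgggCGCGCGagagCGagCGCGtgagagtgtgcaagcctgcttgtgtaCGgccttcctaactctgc
These stretches were picked by their B and T levels, so the levels describe them and carry no test. The members' starts themselves span the range of CpG density, as the RefSeq promoters (GRCm38.p6, 250 bases before to 50 after the start, on the gene's strand) of Bcl6 and Jchain show. Of the 2 listed for Bcl6, the upstream one (chr16:23988803-23989102) holds 31 CpGs, with 10.6% of 32851 mouse promoters having as many, and 0% to 0.177% of its reads were methylated in the 4 files.
Bcl6, promoter: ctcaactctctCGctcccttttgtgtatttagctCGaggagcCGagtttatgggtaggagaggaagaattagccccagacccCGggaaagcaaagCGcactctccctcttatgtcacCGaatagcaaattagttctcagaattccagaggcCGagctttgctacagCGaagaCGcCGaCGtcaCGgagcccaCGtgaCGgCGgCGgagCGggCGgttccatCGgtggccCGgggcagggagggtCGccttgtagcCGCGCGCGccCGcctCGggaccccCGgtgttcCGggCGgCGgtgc
The other, chr16:23981234-23981533, holds 14 CpGs and was at 4.08% to 8.33%. The promoter of Jchain (chr5:88527848-88528147) holds 3 CpGs, with 31.4% of promoters having as few, and 88.3% to 96.6% of its reads were methylated.
Jchain, promoter: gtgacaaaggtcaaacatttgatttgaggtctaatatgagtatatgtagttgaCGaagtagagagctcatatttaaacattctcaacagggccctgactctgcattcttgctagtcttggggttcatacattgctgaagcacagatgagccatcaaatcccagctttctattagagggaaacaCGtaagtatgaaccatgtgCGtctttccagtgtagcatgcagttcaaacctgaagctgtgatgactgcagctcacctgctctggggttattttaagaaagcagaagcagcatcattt

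At the promoters, taken as the start of the principal transcript with 1 kb on each side, 5 of the 7 members were at low or intermediate methylation in both cell types. The share of all promoters at such levels is not given here, so the count is not read as a trait of these genes. Over the 4 files the median promoter level was 8.85% to 11.5% for the 12 germinal centre genes listed below. For the 18 plasma cell genes it was 5.55% to 6.94%. Mzb1 was lower in B cells, and Jchain was methylated in both. A promoter was called different when the adjusted p was under 0.05 and the difference reached 20 points; of 51816 promoters of all genes, 0.645% were called lower and 0.971% higher in B cells. Mzb1 was the only member called. Its promoter was 28.4% (24.9 to 32.1) methylated in female B cells and 33.4% (29.7 to 37.3) in male B cells, against 82.5% (79.6 to 85.0) in female and 77.9% (75.0 to 80.7) in male T cells. The B and T levels did not overlap, and the difference was -49.3 points (adjusted p = 7.94e-07, quasi-binomial F test). The call held in all other settings tried, including each file left out in turn.

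**Figure D1:**
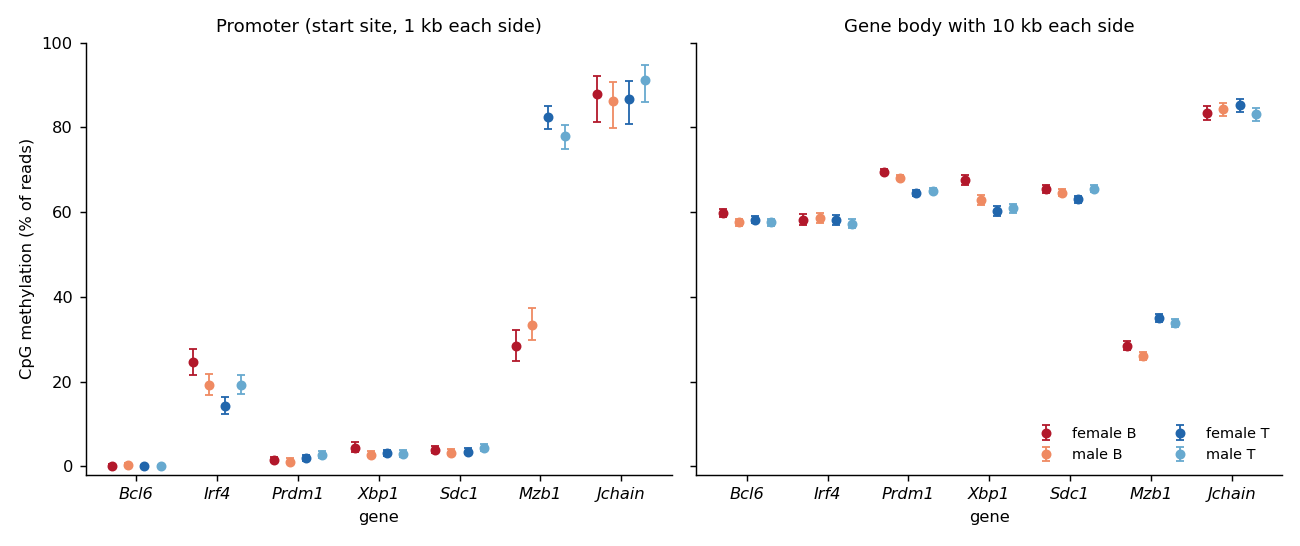
CpG methylation in percent of reads (vertical axis) of the 7 genes in each of the 4 files, at the promoter (left) and over the gene body with 10 kb each side (right). Points are single files and bars are 95% Wilson intervals. At the promoter the B and T points of Mzb1 lie far apart, at 28.4% and 33.4% against 82.5% and 77.9%, while those of Bcl6, Prdm1, Xbp1 and Sdc1 lie under 5% in every file.

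For the regulators, the promoter of Bcl6 (105 CpGs) was at 0.164% and 0.275% in female and male B cells and at 0.0574% and 0% in T cells. That of Prdm1 (86 CpGs) was at 1.48% and 1.13% in B cells and at 1.89% and 2.74% in T cells. That of Xbp1 (97 CpGs) was at 4.37% and 2.78% in B cells and at 3.10% and 2.97% in T cells. All of these starts were therefore almost free of methylation in the resting B cell and in the naive T cell alike. Sdc1 (109 CpGs), a surface protein of the plasma cell, was likewise low, at 3.85% and 3.22% in B cells and 3.48% and 4.36% in T cells. Irf4 (55 CpGs) was intermediate, at 24.5% and 19.2% in B cells and 14.2% and 19.2% in T cells. The equal male averages hide local differences: within this interval, 10 CpGs at chr13:30748528-30748761 were at 52.7% in male B and 18.8% in male T cells. With 500 bp on each side of the start the difference of Irf4 went from 5.15 to -3.37 points. Jchain (11 CpGs) was at 87.8% and 86.2% in B cells and at 86.7% and 91.3% in T cells, overlapping between the cell types. For these 6 the adjusted p lay between 0.320 and 0.864, which does not show that their levels are equal. With at least 10 reads per CpG the difference of Jchain grew from -2.03 to -9.05 points.

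Across 1 kb windows, Irf4, Prdm1 and Xbp1 had called differences in both directions, and Mzb1 had only lower and Sdc1 only higher levels in B cells. A window was called with an adjusted p under 0.05 and a difference of 20 points or more; of 2018320 windows, 0.913% were called lower and 1.16% higher in B cells. Of the 294 windows of the members, 11 (3.74%) were called lower and 18 (6.12%) higher in B cells. Called windows lie more often near genes in general: of 1092443 windows within 10 kb of protein-coding genes, 1.19% were called lower and 1.59% higher. At 5 myeloid marker genes, 4.08% of 196 windows were called lower and 3.06% higher. At 5 marker genes of natural killer and CD8 cells these shares were 3.88% and 15.5% of 129 windows. The lower share of the members was thus close to that of these other marker lists. The lower windows were 5 at Mzb1, 3 at Prdm1, 2 at Irf4 and 1 at Xbp1, and the higher windows were 8 at Prdm1, 5 at Irf4, 3 at Xbp1 and 2 at Sdc1. Bcl6 (44 windows) and Jchain (20 windows) had none by this test, with 14 and 1 windows at an unadjusted p under 0.05, where 95 of the 294 member windows were. The share of all windows under that limit is not given here, so these counts are not read as an excess. A lower window was found at 4 of the 7 genes and a higher window at 4 of 7, where 30.1% and 33.7% of protein-coding genes had at least 1. The window calls rest on a single dispersion shared by all windows, estimated from windows with enough reads in both states. An alternative prior was taken from all windows, which include those fully methylated or unmethylated in every file. It had 2.53 degrees of freedom, the lowest adjusted p of any window was 0.0628 and none was called. At an adjusted p under 0.1 with 20 points or more there were then 19 member windows, and 19128 of all windows. Fisher's exact test in each sex called 10 lower and 17 higher member windows, and limma on log2 ratios 6 and 12. The named windows that limma did not call were the lower ones of Irf4 (adjusted p = 0.0553 and 0.0512) and Prdm1 (adjusted p = 0.0929 and 0.260).

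**Figure D2:**
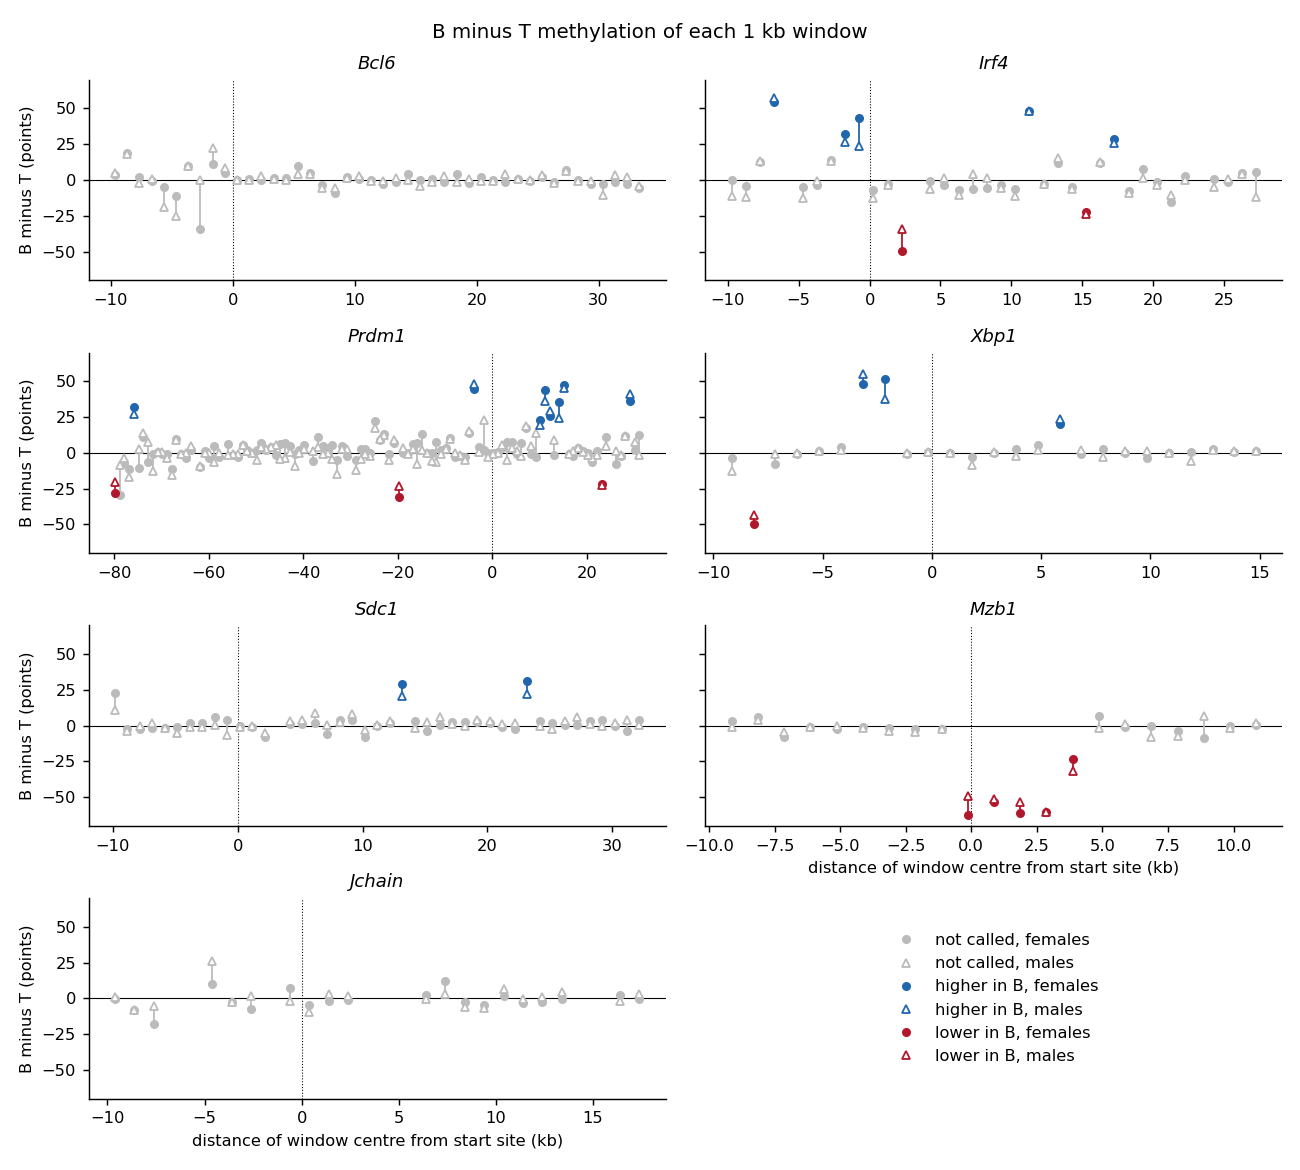
Difference in CpG methylation, B minus T in percentage points (vertical axis), of each 1 kb window against the distance of its centre from the start site in kb (negative is upstream), in 7 panels, 1 for each gene. Filled circles are females, open triangles males, joined by a line; red and blue mark windows called lower and higher in B cells, grey those not called. The red windows of Mzb1 form a single block from its start to just beyond its 3′ end, whereas Irf4, Prdm1 and Xbp1 carry windows of both colours.

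Mzb1 had the largest block of lower methylation among the members. Its 5 called windows followed each other from the promoter over the gene body to just beyond its 3′ end, and the other 16 of its 21 windows were not called. In the window chr18:35646001-35647000, downstream of the gene, the levels were 25.9% (16.1 to 38.9) and 32.0% (20.8 to 45.8) in female and male B cells compared with 86.2% (75.1 to 92.8) and 92.6% (82.4 to 97.1) in T cells, a difference of -60.4 points (adjusted p = 1.35e-14). In the window chr18:35647001-35648000, which covers exons, they were 26.7% and 29.2% in B cells compared with 87.8% and 82.4% in T cells, a difference of -57.2 points (adjusted p = 1.22e-68). Both windows separated the cell types in each sex by more than 50 points. The first could not be tested with at least 10 reads per CpG. The window chr18:35648001-35649000, chosen after its values were seen, was at 0% (0 to 2.63) and 1.76% (0.602 to 5.06) in B cells and at 53.3% and 52.8% in T cells. These levels make it 1 of only 2 member windows that were unmethylated in B cells, at most 20% in both sexes, and methylated in T cells, at least 50% in both. Counted by single CpG, from the same reads, 23 of the 438 measured CpGs of Mzb1 were unmethylated in B cells and methylated in T cells, and 0 the reverse. Around the start the low levels of B cells were broken by a short stretch of higher methylation just inside the gene, as the plot of single CpGs shows. The windows from chr18:35647001 on overlap a read-through transcript annotated as SPATA24, so their methylation cannot be assigned to Mzb1 alone.

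**Figure D3:**
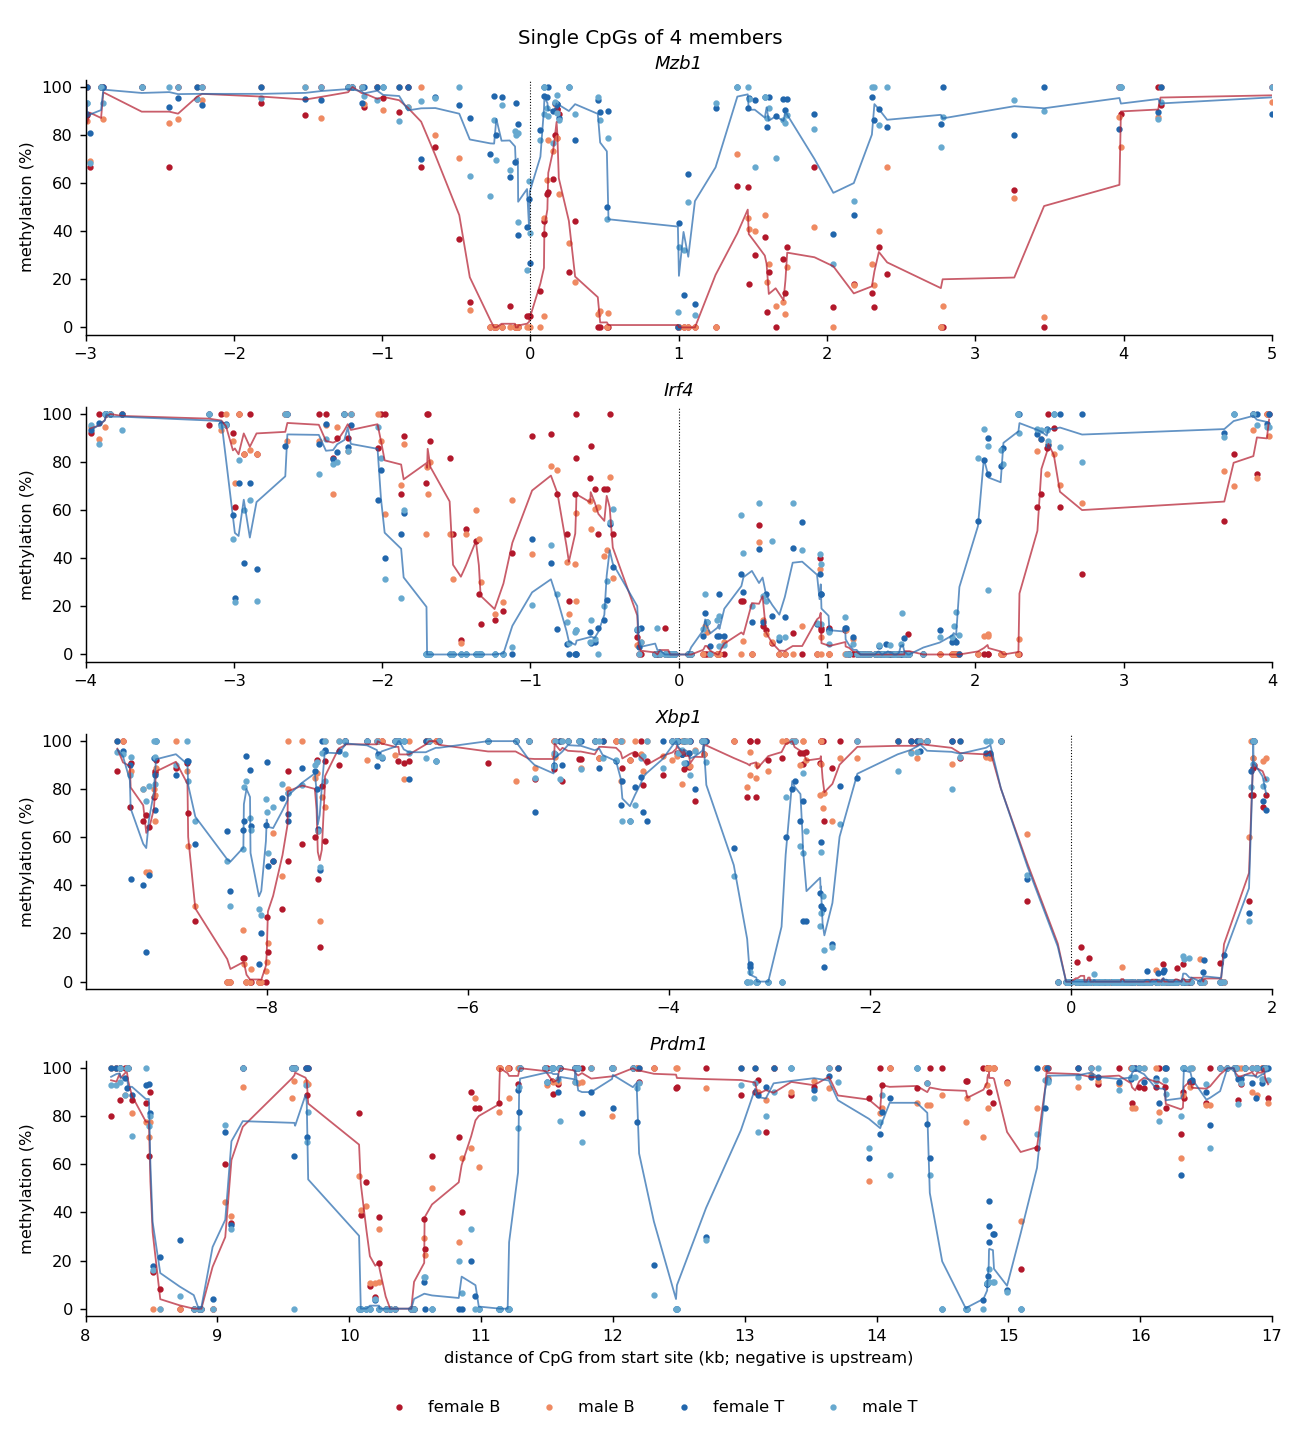
Methylation of single CpGs in percent (vertical axis) against distance from the start site in kb, for parts of Mzb1, Irf4, Xbp1 and Prdm1, each point being 1 CpG in 1 file and each line the mean of females and males of a cell type (red B, blue T) averaged over 3 neighbouring CpGs. In Mzb1 the B line lies below the T line over the start and the body, in Irf4 the lines cross between the upstream flank and the intron downstream of the start, and in Prdm1 the T line dips where the B line stays high.

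Irf4 had called differences in both directions, as did Prdm1 and Xbp1. Its RefSeq promoter (chr13:30748983-30749282) held 11 CpGs and was at 0.794% and 0% in female and male B cells and at 0% and 0.562% in T cells, so the start itself was unmethylated in both. Downstream, in the window chr13:30751001-30752000 centred at 2275 bp from the start, the levels were 24.3% (19.7 to 29.5) and 31.8% (26.7 to 37.4) in B cells compared with 73.6% (69.3 to 77.5) and 66.2% (61.5 to 70.7) in T cells, a difference of -41.8 points (adjusted p = 9.59e-41). That window holds the first stretch printed above, an intronic run of 8 CpGs, and in the plot of single CpGs it lies at the edge of the unmethylated stretch that begins at the start site. The window chr13:30764001-30765000, which includes part of exon 9, was at 70.6% and 68.9% in B cells compared with 93.0% and 92.6% in T cells, a difference of -23.0 points (adjusted p = 2.34e-11). This call was lost when each CpG had to have 10 reads, where the difference was -15.8 points, and vanished at 15 reads, at 0.0862 points.

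Of the 5 windows of Irf4 called higher in B cells, 2 lay upstream, 1 at the promoter, 1 over an exon and 1 in an intron. In the window chr13:30742001-30743000, centred at -6725 bp from the start, the levels were 67.5% (56.8 to 76.6) and 72.6% (63.5 to 80.2) in female and male B cells compared with 12.9% (8.00 to 20.2) and 15.3% (9.5 to 23.7) in T cells, a difference of 55.9 points (adjusted p = 1.94e-22). In the window chr13:30760001-30761000, in an intron, they were 66.0% and 63.5% in B cells compared with 17.9% and 15.5% in T cells, a difference of 48.1 points (adjusted p = 1.50e-21). These were the 2 member windows that were unmethylated in T cells and methylated in B cells. Of the single CpGs of Irf4, 20 of 401 were unmethylated in T cells alone and 9 in B cells alone. Between -2927 and -582 bp of the start, 5 runs with 34 CpGs in all were more methylated in B than in T cells.

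Prdm1, which encodes BLIMP-1, had 107 windows, the most of the members because its annotated body spans from 44437177 to 44528501 on chromosome 10, with the coding start at 44458687. The annotated 5′ end belongs to a retained-intron transcript whose own start was also low, at 7.16% and 6.25% in B cells and 7.48% and 6.14% in T cells. The 8 windows called higher in B cells included 5 that followed one another closely in the body, from chr10:44443001 to chr10:44449000. In the window chr10:44443001-44444000 the levels were 92.3% (88.3 to 95) and 92.5% (89.2 to 94.8) in female and male B cells compared with 45.2% (40.8 to 49.7) and 47.0% (42.1 to 52.0) in T cells, a difference of 46.3 points (adjusted p = 1.81e-60). In the window chr10:44462001-44463000, centred at -3814 bp, they were 89.0% and 94.6% in B cells compared with 44.4% and 46.8% in T cells, a difference of 46.2 points (adjusted p = 8.26e-30). The gene of the plasma cell regulator thus carried more methylation in the resting B cell than in the naive T cell at these places. With a minimum of 15 reads per CpG the first difference was 21.6 points (adjusted p = 0.000112), and with 10 reads the second was 72.5 points. Runs of CpGs picked by their difference, and so described without a test, were found here too: a run of 11 CpGs at chr10:44447474-44448060 was at 86.1% and 72.3% in B cells compared with 2.84% and 4.71% in T cells, and a run of 4 CpGs at chr10:44445980-44446377 at 96.2% and 98.1% against 10.9% and 7.94%.

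Of the 107 windows of Prdm1, 44 had a lower mean level in B cells and 3 of these were called. In the intronic window chr10:44478001-44479000, centred at -19814 bp from the coding start, the levels were 54.0% (45.7 to 62.1) and 63.8% (55.6 to 71.3) in female and male B cells compared with 85.0% (78.2 to 90.0) and 87.1% (80.5 to 91.6) in T cells, a difference of -27.1 points (adjusted p = 1.15e-08). In the window chr10:44435001-44436000, downstream of the gene, they were 51.1% and 53.3% in B cells compared with 73.0% and 76.0% in T cells, a difference of -22.3 points (adjusted p = 0.00238). This last call was lost without the male T cell file (adjusted p = 0.0688). The third, chr10:44538001-44539000, chosen after its values were seen, was at 56.7% and 66.9% in B cells compared with 84.6% and 87.6% in T cells. A run of 6 CpGs that begins just before it, chr10:44537953-44538296, was at 7.61% and 19.3% in B cells compared with 53.3% and 54.2% in T cells. Over the gene, 7 of the 1332 CpGs of Prdm1 were unmethylated in B cells alone against 33 in T cells alone.

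Xbp1, the factor of the secretory programme, had a low-in-B and a low-in-T stretch on the same side of its start, upstream. In the window chr11:5512001-5513000, centred at -8158 bp, the levels were 12.6% (8.82 to 17.7) and 17.7% (13.8 to 22.5) in female and male B cells compared with 62.2% (57.2 to 67) and 61.1% (56.0 to 66.0) in T cells, a difference of -46.5 points (adjusted p = 1.61e-45). With the Mzb1 window at 35648001 it made up the 2 member windows unmethylated in B cells alone. In the window chr11:5517001-5518000, centred at -3158 bp, they were 94.5% (90.9 to 96.8) and 93.9% (90.0 to 96.3) in B cells compared with 46.5% (39.5 to 53.7) and 39.1% (33.8 to 44.8) in T cells, a difference of 51.4 points (adjusted p = 5.20e-53). The next window, chr11:5518001-5519000, was at 95% and 84.9% in B cells compared with 43.2% and 47.1% in T cells, a difference of 44.8 points (adjusted p = 4.84e-23). In each of these windows the levels of the B and the T cells were clear of each other. Of these upstream stretches, the one nearer to the gene was the methylated one in B cells.

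Among the remaining secretory and surface genes, Sdc1 had 2 windows called higher and 0 called lower in B cells. In the window chr12:8794001-8795000, downstream of the gene, the levels were 94.6% and 98.9% in female and male B cells compared with 63.2% and 76.6% in T cells, a difference of 26.9 points (adjusted p = 1.35e-14). In the intronic window chr12:8784001-8785000 they were 96.6% and 94.4% in B cells compared with 67.3% and 73.8% in T cells, a difference of 24.9 points (adjusted p = 5.90e-22). The lowest difference among the 42 windows of this plasma cell marker was -6.37 points, where 0.913% of all windows were called lower. Of its 649 CpGs, 0 were unmethylated in B cells alone and 0 in T cells alone, where 0.227% and 0.31% of autosomal CpGs were. Jchain was largely methylated, with 127 of its 144 CpGs at 50% or more in all 4 files, 6 unmethylated in both cell types, and window differences between -11.5 and 18.0 points. Bcl6 combined the least methylated promoter with window differences between -17.9 and 18.5 points, and 8 of its windows were unmethylated in both cell types. Short runs at Bcl6 still differed: 8 CpGs at chr16:23990005-23990417 were at 73.9% and 82.1% in B cells compared with 44.6% and 39.6% in T cells, and 4 CpGs at chr16:23993355-23993542 at 23.9% and 10.5% against 54.4% and 78.7%. Both runs are upstream of its start and were picked by their difference, so they carry no test.

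Counted over all members, 25 of the 294 windows were unmethylated in both cell types, 2 in B cells alone and 2 in T cells alone, where 1.53%, 0.0376% and 0.0695% of all windows were. Of the 4127 single CpGs, 1120 were unmethylated in both, 46 in B cells alone, 63 in T cells alone and 2481 methylated in all 4 files (27.1%, 1.11%, 1.53% and 60.1%). Over the 18216084 autosomal CpGs these shares were 8.56%, 0.227%, 0.31% and 83.4%. The regions of the members are built around starts. Of the 1120, 273 lay in the region of Bcl6, 244 in that of Prdm1 and 236 in that of Mzb1. The Mzb1 region also holds the start of its neighbour Prob1. In the members, as over all autosomal CpGs, far more CpGs were unmethylated in both cell types than in B cells alone. Of the 11 lower windows, 2 lay at promoters, 3 over exons, 1 in introns, 2 upstream and 3 downstream, and of the 18 higher windows 1, 3, 6, 5 and 3 did. Of the 265 windows not called, 18, 40, 98, 51 and 58 lay in these places.

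Averaged over whole gene regions the members differed by -7.14 to 4.64 points, where the median absolute difference of all regions was 1.14, and the quasi-binomial F test called no member, with 2 at an unadjusted p under 0.05, where 0.139% of 21564 regions were called lower and 0.376% higher with 5 points or more. The region of Mzb1 was at 28.4% and 26.0% in female and male B cells compared with 34.9% and 33.8% in T cells, a difference of -7.14 points (adjusted p = 0.0951). It was called in 5 of the other settings, among them a minimum of 10 reads (adjusted p = 0.0456) and limma on log2 ratios of methylated to unmethylated reads (adjusted p = 0.0318). The regions of Xbp1 (67.6% and 62.9% against 60.3% and 60.9%) and Prdm1 (69.6% and 68.1% against 64.5% and 65.1%) had higher levels in B cells in both sexes, by 4.64 points (adjusted p = 0.326) and 4.05 points (adjusted p = 0.146). As a mean over CpGs the difference of Xbp1 was 1.72 points. Without the female B cell file it was 2.31 points, and with at least 15 reads per CpG it vanished, at -0.0742 points. Irf4, Bcl6, Sdc1 and Jchain lay between -0.28 and 0.86 points. At Irf4 the windows ranged from -41.8 to 55.9 points while the whole region differed by 0.74. By the 4 promoter and 4 region levels, the gene nearest to Mzb1 among 21057 was Il4i1 and the next was Cd79a, a subunit of the B cell receptor, whose promoter was at 10.5% and 17% in B cells compared with 83.4% and 79.3% in T cells, both about 30.3 points away (Euclidean distance). The other 6 members had neighbours within 4.36 points: Eif3j1 and Dpf2 for Prdm1, Azi2 and Gskip for Xbp1, Zfp740 and 6430571L13Rik (5.87 points) for Irf4, Frzb and Tpgs2 for Sdc1, Vmn1r42 and Serpina1e for Jchain, and Rtn3 and Gtf3c6 for Bcl6.

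CpG density and promoter level went together among the members, as a description over 7 genes. The ratio of observed to expected CpGs in the 2 kb around the start was 0.90 at Bcl6, 0.74 at Prdm1, 0.64 at Xbp1 and 0.61 at Sdc1, the promoters with low levels in all 4 files. It was 0.39 at Irf4 and 0.29 at Mzb1, the intermediate and the called promoter, and 0.22 at Jchain. Of 7 short motifs searched on both strands, the E-box CAGGTG was found in 6 of 11 lower and 10 of 18 higher windows, beside 160 of all 294 member windows and 48.0% of all windows tested. The RUNX motif TGTGGT was found in 5 and 11, beside 164 of 294 and 53.65% of all windows. The octamer ATGCAAAT was found in 0 and 1, the PU.1 motif GAGGAAGT in 1 and 1, and the BLIMP-1 type motif AGTGAAAG in 1 and 2, beside 15, 20 and 19 of 294 and 7.88%, 6.01% and 5.87% of all windows. The XBP1 type motif TGACGTGG and the BCL6 type motif TTCCTAGAA were found in none of the called windows, beside 9 and 8 of 294 and 0.798% and 1.69% of all windows.

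Genes listed for the same programmes, outside the 7, were counted for context. The stage at which each is expressed was not tested, so the lists may hold genes already in use in resting B cells. Of 12 germinal centre genes, 30 of 841 windows (3.57%) were called lower and 83 (9.87%) higher in B cells. Of the higher windows, 61 lay among the 360 of Bach2, a repressor that holds back plasma cell differentiation and also acts in naive T cells. Another 12 lay among the 29 of Gpr183, a migration receptor. Of the lower windows, 11 lay among the 43 of Pou2af1 and 9 in Bach2. The promoter of Pou2af1, a B cell coactivator, was lower in B cells, at 6.67% and 6.56% in females and males compared with 47.2% and 45.7% in T cells. That of Gpr183 was higher, at 42.4% and 35.4% against 8.07% and 6.86%, and the other 10 were not called. Of 18 plasma cell and secretory pathway genes, 56 of 1526 windows (3.67%) were called lower and 38 (2.49%) higher. The promoters of Tnfrsf13b, the TACI receptor (63.8% and 62.8% against 92.3% and 93.0%), and Slamf7 (72.0% and 72.2% against 93.8% and 94.4%), a surface receptor of plasma cells, were lower in B cells, and the other 16 were not called. The genes of this list with the most called windows, a ranking that also follows how many windows a gene has, were the unfolded protein response genes Ern1 (6 lower and 8 higher of 111), Atf6 (9 and 6 of 175) and Edem1 (1 and 10 of 48), and Zbtb20 (8 and 3 of 650), a transcription factor of plasma cells, Tent5c (0 and 8 of 57), a poly(A) polymerase, and Slamf7 (7 and 1 of 40). Of the other 12 genes, listed after their values were seen, 9 had called windows in the lower direction alone (Cd38 7, Herpud1 5, Tnfrsf17 and Tnfrsf13b 3 each, and Txndc5, Pdia4, Ell2, Derl3 and Hsp90b1 with 1 or 2), Fkbp11 and Sec11c had 1 higher window each, and Creld2 had none.

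**Figure D4:**
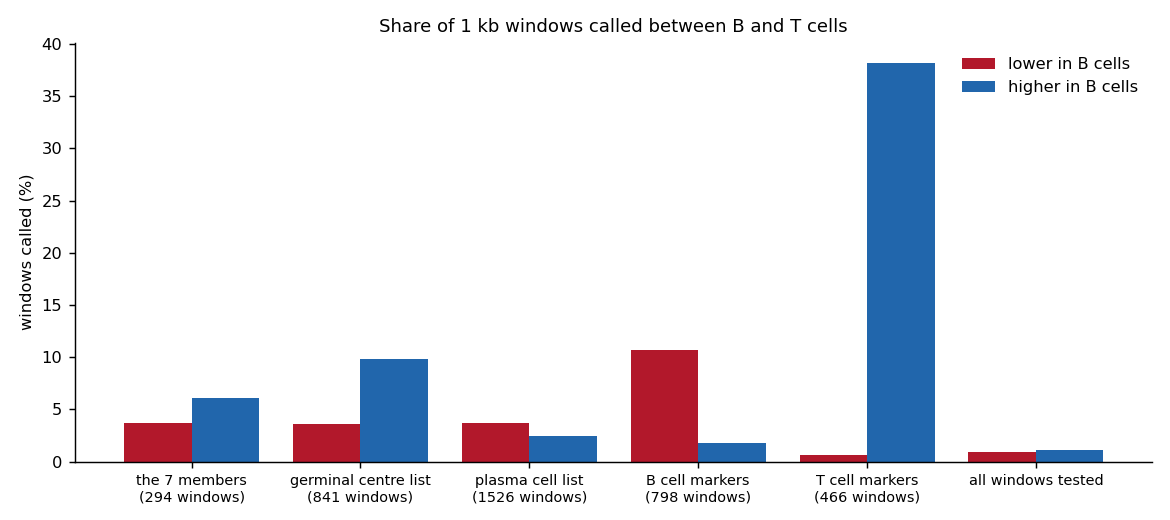
Share of 1 kb windows called lower (red) or higher (blue) in B cells, in percent (vertical axis), for the members, the germinal centre list, the plasma cell list, B cell and T cell marker genes, and all windows tested; bars start at 0 and have no error because each is a share of a fixed set. The members had 3.74% lower and 6.12% higher, B cell markers 10.7% lower and T cell markers 38.2% higher, beside 0.913% and 1.16% of all windows. Not plotted are the myeloid markers, with 4.08% lower and 3.06% higher, and the natural killer and CD8 markers, with 3.88% and 15.5%.

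The labels were checked against marker genes. All 8 B cell marker promoters had lower levels in B than in T cells, 6 of them called, and 9 of 10 T cell marker promoters had higher levels in both sexes, 7 of them called, Lat being the exception. Of 5 myeloid marker promoters 0 were called, and of 5 markers of natural killer and CD8 cells 2 were called higher in B cells, Cd8a and Cd8b1. Between the sexes, 0 of the 294 member windows were called by the same test and 16 (5.44%) had an unadjusted p under 0.05. Only 20 of 1950708 autosomal windows were called for sex, so 0 among the members says little about them. The median absolute difference of the member windows was 2.60 points between B and T cells, 2.16 between female and male B cells and 2.07 between female and male T cells. The first is averaged over both sexes and the others are differences of single files, so they are not on the same footing.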

How the data were processed

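The authors deposited whole-genome bisulfite calls for the spleen B and T cells, 1 file for each sex and cell type, although 2 samples stand behind each group and whether a file merges both is not stated. Each deposited file gives, per CpG and with the strands merged, the methylated fraction and the count of reads, and lists only CpGs with 5 reads or more. The submitters' processing notes name Trim Galore, FastQC, Bismark 0.13.1 and the mm10 build (GRCm38), and the labels mention spike-ins for conversion, of which no values were used here. A second, oxidised portion of each sample is not analysed here.

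The number of methylated reads of a CpG was taken as its fraction multiplied by its count. CpGs in all 4 files were summed over 1 kb windows (3 CpGs or more), promoters and GENCODE M21 gene regions (10 CpGs or more), in Python 3.11.15. A quasi-binomial model with cell type and sex was fitted to the methylated and total reads of every feature, and its F test used a dispersion squeezed by limma 3.58.1 (squeezeVar in R 4.3.3), with Benjamini-Hochberg adjustment over all features. The prior came from features with 5 or more expected reads of each state in every file, giving a dispersion of 1.307 for windows, 1.619 for promoters and 4.331 for gene regions. The test was tested on simulated data. For windows the prior was infinite, so all windows shared the 1.307 and the own spread of a window did not enter its p-value. For promoters and gene regions the residual was the difference between females and males in B minus T, which may be technical. An exact permutation test of 2 files against 2 cannot go below p = 0.333 (two-sided), so none was used. Neighbouring CpGs share reads, so the intervals are too narrow. The window tests use the same summed counts, and their p-values do not measure a spread between animals. By limma on log2 ratios, which takes files as units, the Mzb1 window at 35647001 had an adjusted p of 0.0118, where the quasi-binomial F test gave 1.22e-68. For the Irf4 window at 30751001 these were 0.0553 and 9.59e-41. Total autosomal CpG reads per file were 278275973 to 339923001.

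A run was 4 or more consecutive measured CpGs, no more than 500 bp apart, each with a mean difference of 20 points or more and the same sign in both sexes. The text names all 7 members, per member at most 2 called windows a direction by the larger of the smaller sex difference, and from the 2 context lists the genes with a called promoter or the most called windows. The members and lists were chosen with earlier results of these data known. The RefSeq promoter table matched 6 of the 7 members. Alternatives were other read minimums, window sizes, thresholds, flanks, no sex term, another prior, Fisher's exact test, limma and each file left out. The promoter taken at the end of the whole annotated gene was added after seeing the data.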

Additional observations from a re-analysis of the deposited data

Results flagged for a closer look

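For 6 intervals of the members the B minus T difference had opposite signs in females and in males, and the difference between the sexes was not tested. Among gene regions these were Sdc1 (2.37 points in females, -0.93 in males), Jchain (-1.70 and 1.15) and Bcl6 (1.73 and -0.0025). Among promoters they were Xbp1 (1.27 and -0.19), Sdc1 (0.37 and -1.14) and Jchain (1.06 and -5.12). Each of these differences belongs to an interval that was not called different between B and T cells.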

How the results depend on the processing

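The promoter call of Mzb1 kept its direction and its side of the threshold in every setting tried. The counts of member windows (11 lower, 18 higher) became 7 and 7 with at least 15 reads per CpG, 0 and 0 with the prior from all features, 6 lower with limma, 31 higher at 10 points, 6 and 9 at 30 points, 20 and 32 in 500 bp windows, 3 and 7 in 2 kb windows, and 5 and 9 in gene bodies alone. With each file left out the counts were 10 to 12 lower and 18 to 21 higher. Of the 15 named windows, 14 were still called by Fisher's exact test, 11 by limma and 0 with the prior from all features. These settings use the same levels, so the direction could not change in them. The Irf4 window at 30764001 changed sign with at least 15 reads (0.0862 points). With 10 reads 14 of the 15 could be tested and 13 were called, and with 15 reads 7 could be tested and 6 were called; 10 reached 30 points. The count of gene regions called lower went from 0 to 1 with at least 10 or 15 reads, Fisher's exact test, limma, flanks of 5 kb and the gene body alone. The gene was Mzb1 in all of these but the last, for which only the count was kept.

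Taken as a mean over CpGs or with at least 10 reads, interval differences moved by more than their counting error in 6 cases. The Xbp1 region difference was 1.72 points as a mean over CpGs and 3.07 with 10 reads, and that of Mzb1 was -8.61 and -6.07. The promoter difference of Jchain was -9.05 with 10 reads and that of Bcl6 -0.0435. With at least 15 reads, outside that count, further differences moved. That of the Xbp1 region was -0.0742 points, that of the Irf4 region 2.90 and that of the Mzb1 promoter -59.3. Windows unmethylated in B cells alone (2) numbered 1 at a limit of 10%, 4 at 30%, 1 with 10 reads and 0 in 2 kb windows. Those unmethylated in T cells alone (2) numbered 0 at 10%, 1 with 10 reads and 1 in 2 kb windows. Those unmethylated in both (25) numbered 49 in 500 bp and 12 in 2 kb windows. No paired analysis by replicate number was made, since the groups share none; B and T cells were matched by sex in the model. With 14.6 to 17.7 reads per CpG on average, single CpGs are imprecise, and windows with few CpGs detect large differences only.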
